A study of Mus musculus with 9 samples.

Results

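Expression of 10 genes that are used to mark fibroblasts, mesenchymal progenitors and pericytes (Pdgfra, Thy1, Cd34, Ly6a, Pdgfrb, Rgs5, Cspg4, Des, Mcam and Eng) was examined in mouse embryo fibroblasts (MEFs). The genes were chosen by name, with earlier results of these data known, and every probe-set matched to 1 of them was taken. Of these genes, 9 had a probe-set in the probe annotation, with 18 probe-sets of the 45037 fitted and 9 genes of the 18193 represented. Ly6a is not in that annotation and was identified only through the study's own list of selected probe-sets, so it is described without a test.

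Primary MEFs from 13.5 day embryos of a mixed C57BL/6J x 129Sv/J background were grown in 10% serum, with no treatment. The 3 groups, each of 3 independent cultures with 1 array, were Tgif1 null cells (Tgif1 -/-) at passage 3, wild type cells at passage 3 (P3) and wild type cells at passage 5 (P5). There was no Tgif1 null group at passage 5. The sources used here do not say whether the cultures of a group came from different embryos. If they did not, genotype and embryo cannot be told apart. The null cells came from mice that carry the deleted allele, so the gene was not removed in culture. The values were log2 signals processed with GCRMA, a method that corrects Affymetrix arrays for background, where 2.23 was the lowest value and a step of 1 is a doubling. A gene or probe-set is said to be at the lowest value if it lay within 0.1 of 2.23 on every array.

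Tgif1 itself, a homeodomain repressor, had log2 signals of 2.48, 3.21 and 2.50 on the null arrays and of at least 9.72 on every wild type array. Of 20 fibroblast matrix and mesenchyme genes, 19 had a log2 signal above 4 on at least 3 arrays, against 10008 of all 18193 genes. Lum, counted among them, had group means of 3.09 in the null, 3.78 in wild type P3 and 5.44 in wild type P5. The same limit was passed by 5 of 15 other pericyte and mural cell genes and 4 of 15 endothelial genes. It was also passed by 12 of 12 smooth muscle, 9 of 15 blood cell and 8 of 16 skeletal muscle genes, so the count does not single out fibroblasts. Replicate arrays of a group correlated at 0.996 to 0.999 across probe-sets.

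Fibroblasts and pericytes both descend from mesenchyme and share receptors for platelet-derived growth factor (PDGF). Pdgfra marks fibroblasts and their progenitors, whereas Pdgfrb is strongest in the pericytes and smooth muscle cells that wrap vessels, and both tyrosine kinases are present on cultured fibroblasts. Cd34, a sialomucin, and Ly6a (Sca-1) mark adventitial and interstitial progenitors. Rgs5, Cspg4 (NG2), Des (desmin) and Mcam (CD146) are the common labels of pericytes, although none is exclusive to them: desmin is also the intermediate filament of muscle, and Mcam and Eng (endoglin, a co-receptor for TGF-beta family ligands) are found on endothelium. In such bulk cultures fewer cells of a type and less RNA per cell cannot be told apart.

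The 4 genes that differed between Tgif1 null and wild type P3 cultures were Cd34, Rgs5, Cspg4 and Des, and their promoters are shown because the gene removed encodes a DNA-binding repressor. Each line gives the 250 bases before the transcription start in RefSeq (build GRCm38.p6), 5′ to 3′ on the plus strand. Capitals mark TGTCA or its complement TGACA, the core that TGIF proteins recognise, and CANNTG, the E-box of basic helix-loop-helix factors.
Cd34 (chr1:194938571-194938820): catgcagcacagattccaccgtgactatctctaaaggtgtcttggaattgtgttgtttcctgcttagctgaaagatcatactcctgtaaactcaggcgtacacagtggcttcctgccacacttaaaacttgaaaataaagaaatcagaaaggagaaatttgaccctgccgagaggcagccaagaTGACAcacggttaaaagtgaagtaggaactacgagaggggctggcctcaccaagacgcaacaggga
Rgs5 (chr1:169655251-169655500): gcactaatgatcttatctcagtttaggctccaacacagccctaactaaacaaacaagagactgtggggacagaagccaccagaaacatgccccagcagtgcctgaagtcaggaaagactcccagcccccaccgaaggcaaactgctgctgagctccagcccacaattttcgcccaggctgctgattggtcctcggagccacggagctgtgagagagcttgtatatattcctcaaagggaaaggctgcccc
Cspg4 (chr9:56864854-56865103): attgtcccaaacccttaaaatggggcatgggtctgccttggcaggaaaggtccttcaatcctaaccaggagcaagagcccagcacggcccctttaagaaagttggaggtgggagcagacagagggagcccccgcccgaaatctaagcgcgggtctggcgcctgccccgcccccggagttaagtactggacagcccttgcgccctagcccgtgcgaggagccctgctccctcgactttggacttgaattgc
Des (chr1:75360042-75360291): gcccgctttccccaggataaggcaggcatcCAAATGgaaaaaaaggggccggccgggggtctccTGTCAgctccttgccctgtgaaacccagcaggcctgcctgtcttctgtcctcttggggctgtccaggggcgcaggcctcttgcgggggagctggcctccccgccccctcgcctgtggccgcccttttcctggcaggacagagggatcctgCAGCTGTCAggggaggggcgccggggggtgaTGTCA

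The 4 promoters differed in these letters. Des held 3 matches to TGTCA on either strand and 2 to CANNTG, with 1 overlapping pair, and Cd34 held 1 TGTCA match and no E-box. Rgs5 and Cspg4 held neither motif in this window. Of 32851 mouse promoters of the same length, 40.0% had at least 1 TGTCA match and 66.2% at least 1 CANNTG match. Over the 7 of these marker genes with a promoter in the table, 3 held TGTCA and 4 held CANNTG. GC content was 46.4% for Cd34, 53.6% for Rgs5, 60.4% for Cspg4 and 67.2% for Des, against a median of 52.4% over all promoters. A match is a description of the sequence only, and no binding was measured.

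Between Tgif1 null and wild type P3 cultures, Rgs5, Cspg4 and Des rose, Cd34 fell and 5 genes did not pass the test (limma's moderated test, adjusted p under 0.05 after Benjamini-Hochberg adjustment over all probe-sets). These 4 of 9 genes compare with 2.58% of all genes called in this comparison and 4.59% of genes with a log2 signal above 4 on at least 3 arrays, of which 2.67% rose and 1.92% fell. All 9 marker genes were above that signal limit. Since the genes were chosen with earlier results known, their share beside these percentages is a description and not independent evidence. The 4 calls became 0 to 2 when any 1 array was left out, and 0 with a prior variance trended on signal, with the replicate number as a block or with the 6 arrays of this comparison fitted alone. All arrays of 1 group lay above all of the other for 6 of the 9 genes, against 16% of all genes and 27.7% of those above the signal limit. The median log2 difference over the 9 genes was 0.31, against −0.01 over genes above the limit.

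With passage in wild type cells, Cd34 and Rgs5 fell from P3 to P5, and 0 of the 9 genes rose. Calls were common in this comparison, at 13.2% of all genes and 23.5% of those above the signal limit (10.7% rose and 12.8% fell), so 2 of 9 is near the background. Groups did not overlap for 5 of the 9 genes, against 30.8% of all genes and 53.8% of those above the limit. Between Tgif1 null P3 and wild type P5, Cd34, Rgs5, Cspg4 and Des rose and 0 fell, against 11.4% of all genes called and 19.9% of those above the limit (10.8% rose and 9.15% fell). For 6 of the 9 genes the groups did not overlap there, against 29.9% of all genes and 51.9% of those above the limit. The methods give cut-offs of a p under 0.0001 and a log2 difference of at least 0.5, and their text does not name the test. With the p taken from the F test over the 3 groups, Cd34 and Rgs5 passed in each comparison, against 0.945%, 2.47% and 2.35% of all genes. With the p of the moderated test of each comparison instead, 0, 1 and 1 of the 9 genes passed. The 3 comparisons share arrays in pairs, and each is given with its own values. By probe-set, 5 of 18 rose and 1 fell between the null and P3 (1.59% of all probe-sets called), 0 rose and 3 fell with passage (8.62%), and 6 rose and 0 fell between the null and P5 (7.23%).

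**Figure D1:**
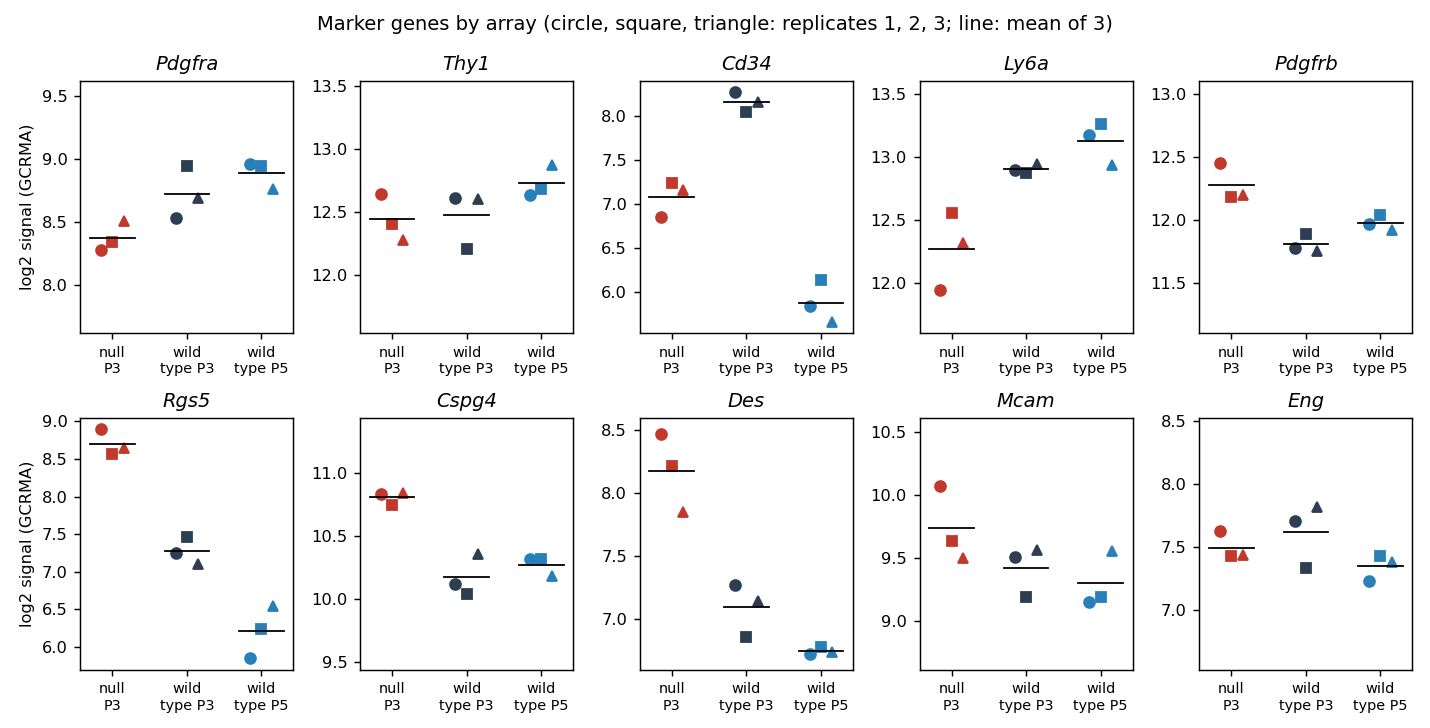
Log2 signal (GCRMA) of the main probe-set of each of the 10 marker genes, 1 panel a gene with its own axis range; each point is 1 array (circle, square and triangle for replicates 1, 2 and 3) and each line the mean of 3 arrays. Rgs5 and Des were high on all 3 Tgif1 null arrays, and Cd34 was highest in wild type P3 and lowest in wild type P5, where its mean was 5.88.

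Pdgfra, the PDGF alpha receptor, was somewhat lower in Tgif1 null cultures, but not beyond the test. Its main probe-set, 1421917_at, had log2 signals of 8.28, 8.34 and 8.51 in the null, 8.53, 8.94 and 8.69 in wild type P3 and 8.96, 8.95 and 8.76 in wild type P5. Every null array lay below every wild type array, with null replicate 3 close to wild type P3 replicate 1. The log2 difference was −0.35 (SE 0.12, adjusted p = 0.354) from wild type P3 and −0.52 (adjusted p = 0.0593) from wild type P5, and 0.17 (adjusted p = 0.628) between wild type P5 and P3. Without wild type P3 replicate 2 the difference of the null from wild type P5 passed the test, at an adjusted p of 0.0333, and it also passed when probe-sets of low signal were left out (0.0129) and after median centring (0.0382) or quantile normalisation (0.0458). The other Pdgfra probe-sets gave −0.03 (1438946_at) and −0.14 (1421916_at) between the null and wild type P3 with overlapping groups, so the null arrays lay below all wild type P3 arrays on 1 of 3 probe-sets. The dimmest, 1421916_at, was 0.60 lower in the null than in wild type P5 with no overlap (adjusted p = 0.192).

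Thy1, a lipid-anchored surface glycoprotein of fibroblasts, was high on every array. It read 12.65, 12.40 and 12.28 in the null, 12.61, 12.21 and 12.61 in wild type P3 and 12.64, 12.69 and 12.87 in wild type P5. The null and wild type P3 values overlapped, with a log2 difference of −0.03 (95% interval −0.39 to 0.32, adjusted p = 1). Wild type P5 was 0.26 higher than wild type P3 (adjusted p = 0.497), with all P5 arrays above all P3 arrays.

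Cd34 gave the clearest separation of the 3 groups. Its log2 signals were 8.27, 8.05 and 8.16 in wild type P3, 6.86, 7.24 and 7.17 in the Tgif1 null and 5.84, 6.14 and 5.67 in wild type P5. The 3 groups did not overlap, with the null cultures between the wild type passages. From wild type P3 to P5, Cd34 fell by 2.28 on the log2 scale (SE 0.15, adjusted p = 0.000777), which is a 4.85-fold lower signal. In the null it fell by 1.07 relative to wild type P3 (SE 0.15, adjusted p = 0.0305), 2.11-fold lower, and it was 2.31-fold higher than in wild type P5 (log2 difference 1.21, adjusted p = 0.00715).

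The change of Cd34 with passage passed the adjusted test without any 1 array, at differences from −2.41 to −2.17. The difference between the null and wild type P3 stayed between −1.15 and −0.96, but its adjusted p was above the threshold, from 0.0594 to 0.118, without any 1 of the 3 null arrays, any 1 of the 3 wild type P3 arrays or wild type P5 replicate 1. Cd34 has 1 probe-set on this array.

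Ly6a (Sca-1) had log2 signals of 11.94, 12.56 and 12.31 in the Tgif1 null, 12.89, 12.87 and 12.94 in wild type P3 and 13.17, 13.26 and 12.94 in wild type P5. All null arrays lay below all wild type arrays, and wild type P3 and P5 overlapped. The group means differed by −0.63 between the null and wild type P3 and by −0.85 between the null and wild type P5. Its probe-set, 1417185_at, was named from a list that holds only probe-sets past the study's own thresholds on these arrays, so these differences are a description and not evidence. Whether it also binds transcripts of other Ly6 genes is not known from the sources used here.

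Among the pericyte markers, Rgs5, a GTPase-activating protein for heterotrimeric G proteins, showed the widest range. Its main probe-set, 1417466_at, read 8.90, 8.57 and 8.65 in the Tgif1 null, 7.25, 7.46 and 7.11 in wild type P3 and 5.85, 6.23 and 6.54 in wild type P5. No 2 groups overlapped. Rgs5 rose 2.70-fold in the null relative to wild type P3 (log2 difference 1.43, SE 0.20, adjusted p = 0.0271) and fell 2.09-fold from wild type P3 to P5 (−1.07, adjusted p = 0.0231). The null was 5.66-fold above wild type P5 (2.50, adjusted p = 0.00151), and this difference passed without any 1 array, at 2.32 to 2.67.

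The comparisons of Rgs5 with wild type P3 were less firm. The rise in the null stayed between 1.34 and 1.53 but missed the threshold without any 1 null array, without wild type P3 replicate 1 or 3 or without wild type P5 replicate 2 (adjusted p from 0.0672 to 0.107). The fall with passage missed it without any 1 wild type P3 array or without wild type P5 replicate 2 (0.0548 to 0.0811).

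A second Rgs5 probe-set, 1420940_x_at, whose suffix marks probes that may also bind other transcripts, showed the same order of groups at lower signal. It read 5.98, 5.11 and 5.57 in the null, 3.50, 3.55 and 3.66 in wild type P3 and 2.23, 2.98 and 2.74 in wild type P5. The null was 1.98 above wild type P3 (adjusted p = 0.0265) and 2.91 above wild type P5 (adjusted p = 0.00244), while the fall with passage, −0.92, did not pass (adjusted p = 0.104). The rise of this Rgs5 probe-set over wild type P3 missed the threshold without null replicate 3, any 1 wild type P3 array or wild type P5 replicate 2 or 3 (0.0502 to 0.106). Wild type P5 replicate 1 sat at the lowest value of the array, so a further decrease on that array could not be seen. The other Rgs5 probe-sets could not show the wild type levels, with 1420941_at at 3.71 on the 6 wild type arrays and 3.72 to 4.33 in the null, and 1420942_s_at at 2.23 on all 9 arrays.

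Cspg4, the NG2 chondroitin sulfate proteoglycan, rose in the Tgif1 null on both of its probe-sets. The main one, 1423341_at, read 10.84, 10.75 and 10.84 in the null, 10.12, 10.04 and 10.36 in wild type P3 and 10.32, 10.32 and 10.18 in wild type P5. The null arrays stood above all 6 wild type arrays, which overlapped with each other. The difference from wild type P3 was 0.64 (SE 0.09, adjusted p = 0.0282), 1.55-fold, and from wild type P5 0.54 (adjusted p = 0.0178), 1.45-fold. Between wild type P5 and P3 it was 0.10 (95% interval −0.11 to 0.31, adjusted p = 0.677).

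The dimmer Cspg4 probe-set, 1450944_at, read 9.55, 9.63 and 9.59 in the null, 8.98, 8.69 and 9.11 in wild type P3 and 8.87, 8.77 and 8.92 in wild type P5. It rose by 0.66 (adjusted p = 0.0469) and 0.73 (adjusted p = 0.0123) relative to wild type P3 and P5, and differed by −0.07 with passage. The sizes were stable, but the rise of Cspg4 over wild type P3 passed in 1 of the 9 fits without 1 array for either probe-set. Those were the fits without wild type P3 replicate 3 (main probe-set, adjusted p = 0.0189) and without wild type P3 replicate 2 (dimmer probe-set, 0.0314), and the others ranged from 0.0509 to 0.149. Against wild type P5 the main probe-set missed the threshold without null replicate 1 or 3 or any 1 wild type P5 array (0.0559 to 0.0599), and the dimmer one without wild type P5 replicate 2 (0.0529).

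**Figure D2:**
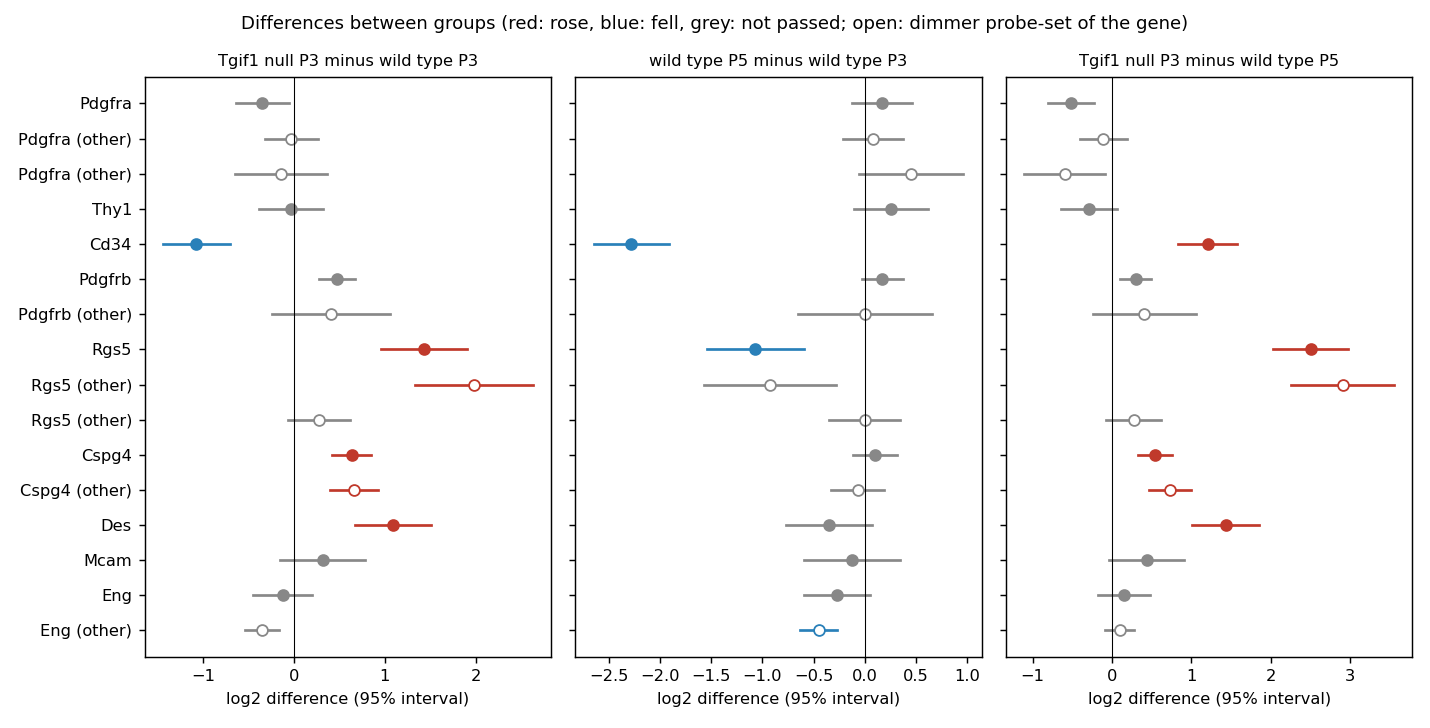
Log2 differences with 95% intervals (x axis) for each probe-set of the 9 tested genes other than the 2 at the lowest value, 1 panel a comparison with its own axis range; filled points are the main probe-set, open points the dimmer ones, red rose, blue fell and grey did not pass limma's adjusted test. Rgs5, Cspg4 and Des lie to the right in both comparisons of the null, and Cd34 changes side, from −1.07 against wild type P3 to 1.21 against wild type P5.

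Des, the type III intermediate filament protein of muscle and pericytes, rose in the Tgif1 null. It read 8.47, 8.21 and 7.85 in the null, 7.27, 6.86 and 7.14 in wild type P3 and 6.72, 6.77 and 6.74 in wild type P5. The groups did not overlap, and the spread was widest in the null (SD 0.31) and narrowest in wild type P5 (SD 0.03). Des rose 2.12-fold relative to wild type P3 (log2 difference 1.09, SE 0.17, adjusted p = 0.0440) and 2.70-fold relative to wild type P5 (1.43, adjusted p = 0.00620). Between wild type P5 and P3 the difference was −0.34 (adjusted p = 0.392). Against wild type P3 the call of Des was kept in 1 of the 9 fits without 1 array, that without null replicate 3 (adjusted p = 0.0334), and missed in the others (0.0707 to 0.141). Quantile normalisation also lost this call of Des, while it gained that of Pdgfrb. A second Des probe-set, 1426732_at, was at the lowest value throughout.

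Des is also a muscle gene, so the skeletal muscle genes were counted beside it. In the null against wild type P3, 7 of 16 were called as risen, 0 as fallen and 9 missed the threshold, while 1 rose, 4 fell and 11 did not pass with passage, and 7 rose and 1 fell between the null and wild type P5. The mean log2 signal of this list was 4.92 to 5.27 on the null arrays, against an average of 3.97 in wild type P3, and 3.33 to 3.38 in wild type P5. Tnnc2 (fast troponin C, 3.14, adjusted p = 0.00423), Myh3 (embryonic myosin heavy chain, 2.35, adjusted p = 0.00574) and Actc1 (cardiac actin, 2.30, adjusted p = 0.0123, or 0.0552 without wild type P3 replicate 1) rose in the null relative to wild type P3. Tnnc2 had wild type means of 2.70 (P3) and 2.48 (P5), near the lowest value, so its difference may be understated. Of the lineage factors, Myod1, Myf5, Myf6, Pax3 and Pax7 were at the lowest value on all arrays, whereas Myog (myogenin), named after its values were seen, had group means of 5.72 in the null, 3.54 in wild type P3 and 2.71 in wild type P5. The log2 of the summed signal did not follow the same order, at 11.73 to 12.19 in the null, 10.83 to 10.98 in wild type P3 and 12.07 to 12.35 in wild type P5, where Acta1 (skeletal actin) rose by 1.60 with passage (adjusted p = 0.000388). The part of muscle genes in the Des values was not tested.

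Pdgfrb, the PDGF beta receptor, was higher in the Tgif1 null by an amount that just missed the threshold. The main probe-set, 1436970_a_at, read 12.45, 12.18 and 12.20 in the null, 11.78, 11.88 and 11.75 in wild type P3 and 11.97, 12.04 and 11.92 in wild type P5. All null arrays were above all wild type arrays. The log2 difference from wild type P3 was 0.47 (SE 0.08, adjusted p = 0.0562) and from wild type P5 0.30 (adjusted p = 0.0970), with 0.17 (adjusted p = 0.351) for passage. Without null replicate 1, which was the highest, the difference of Pdgfrb from wild type P3 was 0.38 and passed, at an adjusted p of 0.0436. It also passed when probe-sets of low signal were left out (0.0162) and after median centring (0.0313) or quantile normalisation (0.0457). The dimmer probe-set, 1417148_at, read 9.84, 8.83 and 8.94 in the null, 8.59 to 8.90 in wild type P3 and 8.72 to 8.84 in wild type P5, so that null replicate 1 stood apart and the other null arrays were near the wild type ones.

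Mcam, an adhesion molecule of the immunoglobulin superfamily, read 10.07, 9.63 and 9.50 in the null, 9.50, 9.19 and 9.56 in wild type P3 and 9.15, 9.19 and 9.56 in wild type P5. The groups overlapped in every comparison. Its difference between the null and wild type P3 was 0.31 (95% interval −0.16 to 0.78, adjusted p = 0.768) and with passage −0.12 (−0.59 to 0.35, adjusted p = 1). Of the pericyte labels, Rgs5, Cspg4 and Des thus rose in the null against wild type P3, Rgs5 fell with passage, and no comparison of Pdgfrb or Mcam passed.

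Endoglin (Eng) was lower in wild type P5 than in P3 on both of its probe-sets, and the difference passed the test on the dimmer one. The brighter, 1417271_a_at, read 7.63, 7.43 and 7.44 in the null, 7.71, 7.34 and 7.82 in wild type P3 and 7.24, 7.43 and 7.39 in wild type P5, with overlap in every comparison. Its log2 differences were −0.12 for the null against wild type P3 and −0.27 with passage (adjusted p = 0.911 and 0.384). The dimmer, 1432176_a_at, read 6.02, 6.02 and 5.78 in the null, 6.25, 6.30 and 6.34 in wild type P3 and 5.93, 5.77 and 5.83 in wild type P5. Wild type P3 stood above both other groups. It fell with passage by 0.45 (SE 0.08, adjusted p = 0.0172), and the null differed from wild type P3 by −0.35 (adjusted p = 0.102) and from P5 by 0.10. The fall of Eng missed the threshold without wild type P3 replicate 1 or 3 or wild type P5 replicate 2 or 3 (0.0530 to 0.0686). The mean of both Eng probe-sets fell by 0.36 with passage (adjusted p = 0.0267).

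**Figure D3:**
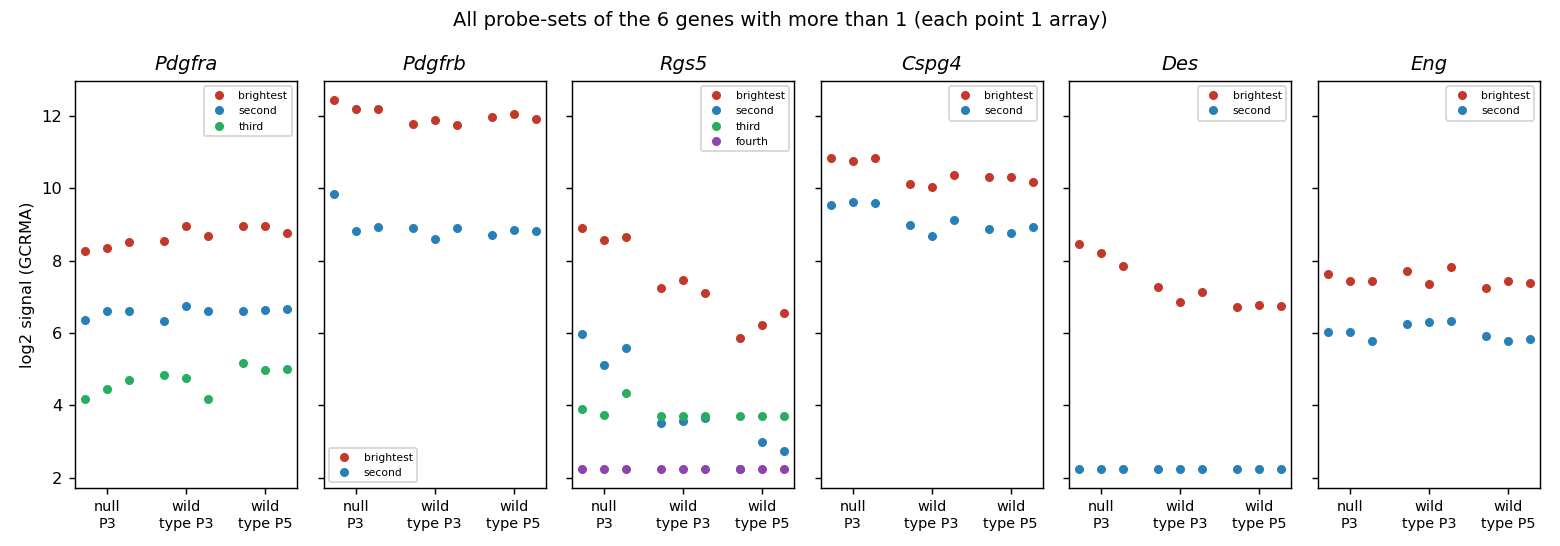
Log2 signal (GCRMA, y axis shared by all panels) of every probe-set of the 6 genes with more than 1, with 3 arrays a group in replicate order; colours rank the probe-sets by mean signal. Both Cspg4 probe-sets and the 2 brightest Rgs5 probe-sets step down from the null to wild type P3, while 1 Des and 1 Rgs5 probe-set stay at 2.23.

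The ligands and partners of the PDGF receptors were compared next. For this and the other lists, the background is the share of genes above the signal limit that were called. It was 4.59% for the null against wild type P3, 23.5% with passage (10.7% rose and 12.8% fell) and 19.9% between the null and wild type P5. A count of 0 in such short lists is near the first share, so it is no contrast with a called marker. Of 15 PDGF ligands and receptor adaptors, 0 rose and 0 fell in the null relative to wild type P3. With passage 2 rose and 0 fell, Pdgfa, a ligand of the alpha receptor (0.51, adjusted p = 0.0113), and Stat3. The rise of Pdgfa passed without any 1 array. Pdgfb, the ligand that recruits pericytes, was near the lowest value on all arrays, from 2.31 to 2.65. Pdgfc had group means of 11.92, 11.88 and 12.14 in the null, wild type P3 and wild type P5, and Pdgfd of 7.51, 7.78 and 8.60, with no comparison of either passing.

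Of 15 genes of endoglin signalling and the BMP and TGF-beta receptors, 0 rose and 0 fell between the null and wild type P3, and 2 rose and 1 fell with passage (Tgfb2 and Tgfb3 rose, Smad5 fell). The call of Tgfb2, a TGF-beta ligand, was lost in 1 and that of Tgfb3 in 7 of the 9 fits without 1 array (at most 0.0553 and 0.128). Acvrl1 (ALK1), the receptor that pairs with endoglin in endothelium, was at the background on every array, from 2.27 to 2.30. Tgfbr2 had group means of 10.80, 10.91 and 11.38 and Tgfbr3 of 8.88, 9.13 and 9.66 in the null, wild type P3 and wild type P5, and neither passed in any comparison.

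Among the relatives of Rgs5, 0 of 12 RGS proteins passed in either direction against wild type P3, for the null or for passage. Only Rgs2 passed between the null and wild type P5, where it fell by 1.52 (adjusted p = 0.0184, and 0.0561 to 0.0719 without null replicate 2 or wild type P5 replicate 1 or 2), against a rise of Rgs5. Rgs4, another label of pericytes, had group means of 7.87, 7.70 and 7.80, and Rgs16 of 10.01, 10.04 and 10.30.

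Of 12 measured genes of the Ly6 and lipid-anchored family, 1 rose in the null relative to wild type P3 (Cd59a, a complement inhibitor, 1.64, adjusted p = 0.0286), a call that was lost in 7 of the 9 fits without 1 array (0.0648 to 0.0970). With passage 1 rose and 1 fell, and Cd59a was the one that rose (2.11, adjusted p = 0.00380), with group means of 8.53 in the null, 6.90 in wild type P3 and 9.01 in wild type P5. Ly6e, a neighbour of Ly6a in the family, had group means of 11.62, 11.99 and 11.31 with no comparison passing. Of 12 intermediate filament genes and desmin partners, 1 rose in the null against wild type P3 (Cryab, the small heat shock protein that chaperones desmin, 0.68, adjusted p = 0.0229), which missed the threshold in 6 of the 9 fits without 1 array (0.0554 to 0.0932). With passage 2 of these genes rose and 2 fell. Cryab was among those that rose (0.72, adjusted p = 0.00531), with group means of 12.86 in the null, 12.18 in wild type P3 and 12.90 in wild type P5, where Des was lowest. Vim (vimentin) had group means of 15.22, 15.17 and 15.33 and Nes (nestin) of 9.10, 9.05 and 8.45, and none of their comparisons passed.

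Other markers of the same cell types were counted next to these genes. Of 15 further pericyte and mural cell genes, 0 rose and 0 fell between the null and wild type P3, and 6 were at the lowest value on all arrays (Abcc9, Ndufa4l2, Higd1b, Cox4i2, Vtn and Steap4). Only 5 of the 15 were above the signal limit. Among them, Gucy1b1 (0.98, adjusted p = 0.0775) and Foxs1 (0.80, adjusted p = 0.0615) were higher in the null with no overlap but did not pass. Angpt1 (0.003) and Tbx18 (−0.20) overlapped between these groups. Between the null and wild type P5, 1 of the 15 rose (Gucy1b1, 1.14, adjusted p = 0.0202) and 4 fell. Kcnj8, the channel subunit that defines brain pericytes with Abcc9, was at 2.65 to 2.67. With passage 3 of these genes rose, Foxs1 (1.67, adjusted p = 0.00178), Angpt1 (0.83, adjusted p = 0.0108) and Tbx18 (0.43, adjusted p = 0.0492, above the threshold in 8 of the 9 fits without 1 array, up to 0.155), and 0 fell, while Rgs5 fell. The summed signal of this list on the log2 scale was 9.21 to 9.35 in the null, 9.05 to 9.23 in wild type P3 and 9.61 to 9.78 in wild type P5.

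Of 18 measured progenitor genes, 0 rose and 0 fell between the null and wild type P3, where Cd34 fell, and 4 rose and 0 fell with passage, where Cd34 also fell. Those with the largest rise were Mfap5, a microfibril protein of adventitial fibroblasts (1.35, adjusted p = 0.00191), and Cxcl12, a chemokine (1.22, adjusted p = 0.000150). In the null against wild type P3, Mfap5 (0.68, adjusted p = 0.0581) and Cxcl12 (0.24, adjusted p = 0.0642) were higher with no overlap but did not pass. The median over the list was 0.043 there, and 12 of the 18 genes were above the signal limit. Pi16, Dpp4, Gli1 and Il33 were at the lowest value on all arrays. Of 20 fibroblast genes, 0 rose and 1 fell between the null and wild type P3 (Dcn, decorin, −0.73, adjusted p = 0.0317, and 0.0631 to 0.121 in the 8 of 9 fits without 1 array that lost it), and 5 rose and 1 fell with passage. Of 12 smooth muscle genes, 0 passed between the null and wild type P3 and 5 rose with passage. Between the null and wild type P5, 1 of the 20 fibroblast genes rose and 8 fell. Of the 18 progenitor genes 0 rose and 3 fell there, and of the 12 smooth muscle genes 0 rose and 3 fell. Among all genes above the signal limit, 10.8% rose and 9.15% fell in that comparison.

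**Figure D4:**
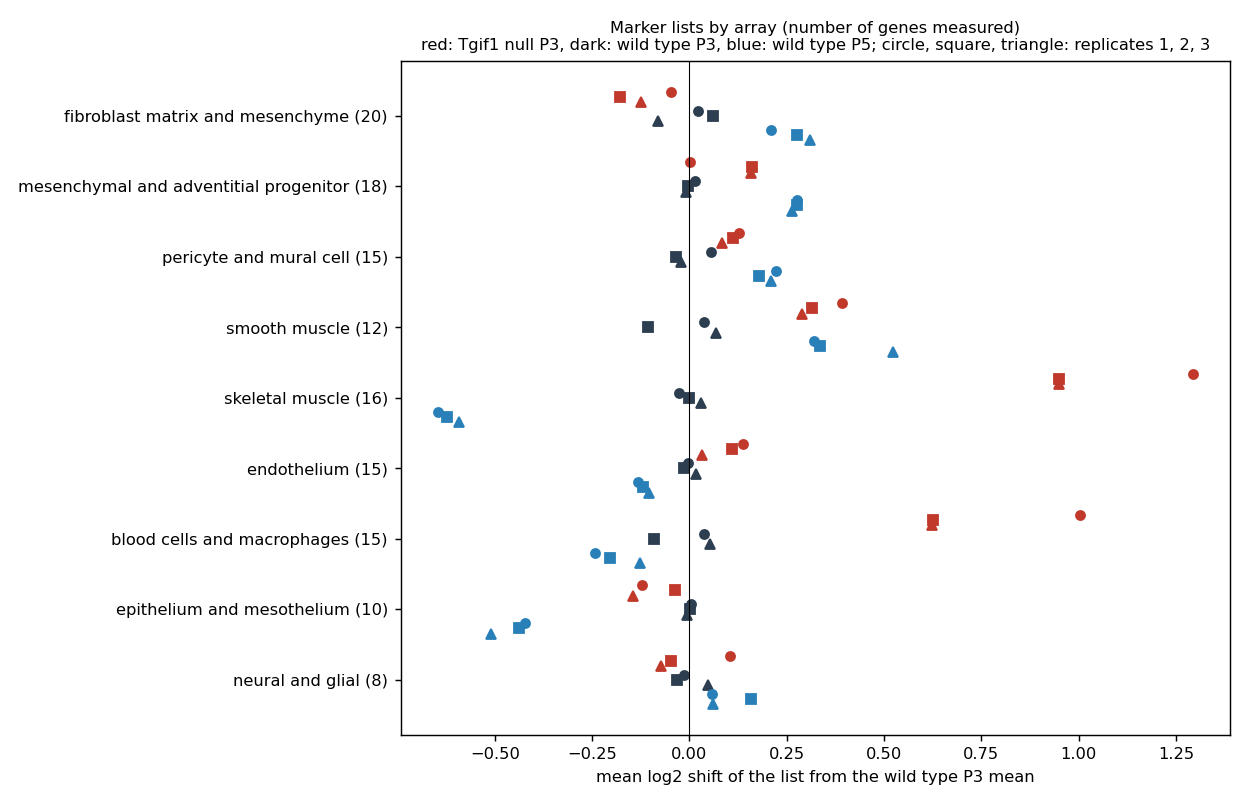
Mean log2 shift of 9 cell type lists from their wild type P3 mean (x axis), 1 point an array (red Tgif1 null P3, dark wild type P3, blue wild type P5; circle, square and triangle for replicates 1, 2 and 3), with the number of genes measured in brackets. The skeletal muscle list was 0.95 to 1.29 higher and the blood cell list at least 0.62 higher on the null arrays, and the pericyte list, with 6 of 15 genes at the lowest value, was 0.18 to 0.22 higher on the wild type P5 arrays.

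Blood cell and macrophage genes were counted in the same way. Of 15 such genes, 13 did not pass and 2 rose between the null and wild type P3, Ctss (cathepsin S, 1.89, adjusted p = 0.00976) and Coro1a (coronin 1A, 1.82, adjusted p = 0.0236, above the threshold in 8 of the 9 fits without 1 array, at 0.0502 to 0.0862), and 0 fell. Between the null and wild type P5, 7 of the 15 rose and 0 fell, against 10.8% and 9.15% of genes above the signal limit. The summed log2 signal of this list was 9.90 to 10.44 in the null, 9.12 to 9.24 in wild type P3 and 8.73 to 8.87 in wild type P5, the same order of groups as Rgs5. The largest part of that sum was Lyz2, with group means of 9.11, 8.52 and 7.97. Aif1 and Itgam were at the lowest value on all arrays. Of 15 endothelial genes, 0 rose or fell against wild type P3 in either comparison, and 2 rose and 0 fell between the null and wild type P5. Their sums were 9.86 to 10.13 in the null, 9.34 to 9.38 in wild type P3 and 9.05 to 9.45 in wild type P5. The largest part of these sums was Flt1, with group means of 9.66, 8.82 and 8.73. Kdr, Emcn and Egfl7 were also above the signal limit. Pecam1, Cdh5, Tek, Tie1, Vwf, Sox18 and Robo4 were at the lowest value throughout. Of 10 genes of epithelium and mesothelium, 0 rose and 1 fell in the null relative to wild type P3 (Krt7, a simple keratin, −0.72) and 0 rose and 2 fell with passage. Of 8 measured neural and glial genes, 0 passed in the null relative to wild type P3 and 1 rose with passage (Map2, 1.07). The part of these cell types in the values of Rgs5, Cspg4, Cd34 and Eng was not tested.

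The median log2 difference between the null and wild type P3 was 0.58 over the blood cell list, 0.29 over skeletal muscle, 0.26 over smooth muscle, 0.083 over the PDGF list, 0.043 over progenitor genes, −0.052 over the endoglin list and −0.089 over fibroblast genes, against −0.01 over all genes above the signal limit. It was within 0.01 of no difference for the other lists. With passage the median was 0.33 over smooth muscle, 0.27 over fibroblast genes, 0.24 over the endoglin list, 0.13 over the PDGF list, 0.070 over progenitor genes and −0.085 over blood cell genes, against −0.03 over genes above the limit, and within 0.03 of no difference for the others. Many genes of the pericyte, endothelial and Ly6 lists were at the lowest value, which holds their medians there.

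The genes whose pattern over the 9 arrays was most like that of each gene called were found among 10007 other genes above the signal limit, by the root mean square (RMS) of the difference between the log2 values after centring each gene. For Cd34 they were Sfrp2, a secreted Wnt modulator (RMS 0.213), and Prom1 (prominin 1, 0.251). For Rgs5 they were Coro1a (0.256) and Col2a1, the cartilage collagen (0.258). For Cspg4 they were Hoxb4 (0.0778) and 2610306M01Rik (0.0890), and for Des Casq2, cardiac calsequestrin (0.168), and Ecscr (0.179). Each is a likeness over 9 points that share 3 groups, with no test.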

How the data were processed

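Expression was measured on 9 Affymetrix mouse expression arrays, 3 cultures in each of 3 groups taken from the sample labels. The authors deposited log2 signals made with GCRMA, which corrects background from probe sequence, normalises by quantiles and summarises probe-sets. The submitters' notes also name limma, with no version in the sources used here. No further normalisation was applied, and the number of arrays limits the precision.

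After 64 control rows were left out, 3 group means were fitted to 45037 probe-sets with limma 3.58.1 in R 4.3.3, at the defaults of lmFit and eBayes. The moderated test of each comparison was adjusted by Benjamini-Hochberg over all probe-sets, and a call needed an adjusted p under 0.05. Probe-sets were named from GEO's platform annotation, with symbols updated through gene numbers to a RefSeq table of GRCm38.p6 (34945 with 1 symbol, 932 with several, 9160 not named here). The main probe-set of a gene was the one with the highest mean signal. A gene was above the signal limit if its main probe-set exceeded log2 4 on at least 3 arrays.

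All 10 marker genes were named, with up to 4 genes of each of 14 lists by the smallest unadjusted p against wild type P3, listed relatives of the markers, and the 2 genes most like each marker called. The marker genes and the lists were chosen with earlier results of these data known. Genes at the lowest value, and those that the text counts, come from the same lists. In simulated data, of 100 probe-sets given a log2 change of 1, 53 passed for the null against P3 and 57 for P5 against P3, and of 100 given a change of 2, 89 and 88 passed. Each simulation had independent normal noise and left 44837 of the 45037 probe-sets unchanged. The changed ones were drawn from those with a mean signal above log2 4. In the data 716 and 3883 probe-sets were called in these comparisons, so the simulated rates are not the power in these data. Exact permutation of 3 against 3 arrays cannot give a two-sided p under 0.1. Alternatives were another prior, a low-signal filter, quantile normalisation, median centring, the replicate number as a block, 6 arrays alone, the mean of all probe-sets, the methods' thresholds and leaving out each array. No protein sequence was used here.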

Additional observations from a re-analysis of the deposited data

How the results depend on the processing

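No called difference of a marker gene changed sign under the alternatives run, but calls did. Between Tgif1 null and wild type P3, 4 genes and 6 probe-sets were called, against 0 and 0 with a prior variance trended on signal, with the replicate block, with the 6 arrays fitted alone or at a moderated p under 0.0001. At the F threshold, the cut-offs of the methods with the p of the F test, they were 2 and 3. Leaving out each array gave 0 to 2 genes and 0 to 2 probe-sets. Between wild type P5 and P3, 2 genes and 3 probe-sets were called, against 1 and 1 with that prior, with the replicate block or at p under 0.0001, and 1 gene with 6 arrays alone. Leaving out each array gave 1 to 2 genes and 1 to 3 probe-sets. Between the null and wild type P5, 4 genes and 6 probe-sets became 2 and 3 at the F threshold and 1 and 2 at p under 0.0001. Of the marker genes, 2 passed the F threshold with a log2 difference of at least 0.5 (Cd34 and Rgs5), 0 with the replicate block and 0 to 2 without 1 array. The labels do not say whether equal replicate numbers pair the cultures. Correlations of deviations from the group means ran from −0.48 to 0.39 for equal numbers and from −0.60 to 0.62 for others. Deviations from a mean of 3 arrays depend on each other, so these ranges cannot decide it. Thy1, at −0.03 between the null and wild type P3, ranged from −0.17 to 0.049 in the fits without 1 array, above 0 without null replicate 3, wild type P3 replicate 1 or wild type P3 replicate 3. The dimmer Cspg4 probe-set ranged from −0.19 to 0.022 between wild type P5 and P3, above 0 without wild type P3 replicate 3. Smad5 turned to 0.045 with passage and −0.032 for the null against wild type P5 in the mean of its probe-sets. The causes were not tested.

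Decreases of probe-sets near the lowest signal of 2.23 cannot be seen.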
